A study of Homo sapiens with 8 samples.

Results

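The clustered replication-dependent histone genes were taken as the protein-coding genes of chromosomes 1 and 6 in the GENCODE release 44 annotation of hg38 whose symbol starts with H1-, H2AC, H2BC, H3C or H4C. This gave 68 of 20033 protein-coding genes, with 6 H1, 17 H2A, 18 H2B, 13 H3 and 14 H4 genes. On chromosome 6, 53 genes lie between 25.9 and 28 Mb (the chromosome 6 cluster) and the 2 genes H2AC1 and H2BC1 lie just before it. The other 13 genes are on chromosome 1. Origins of replication within 10 kb of a gene were counted, and the 10 kb reaches of the 68 genes joined into 8 windows of 0.621 Mb in all. These windows held 7 of 30197 origins in WT cells, 10 of 33535 in ORC1KO, 8 of 37813 in ORC2KO and 8 of 41332 in ORC5KO cells.

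The cells were HCT116, a human colorectal carcinoma line, in a p53-/- derivative. WT cells carry all subunits of the origin recognition complex (ORC), and the ORC1KO, ORC2KO and ORC5KO lines derived from them have the ORC1, ORC2 or ORC5 gene knocked out, on the same p53-/- background. No drug or time course was part of these 8 samples, with 2 replicates for each of the 4 lines. Each line was measured by SNS-seq, which sequences the short nascent DNA strands that are made where replication starts. A knockout line is a single cell line, so a change can belong to that line as well as to the lost subunit, and these cannot be told apart.

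Replication-dependent histone genes encode the bulk of the core histones H2A, H2B, H3 and H4 and the linker histones H1 that package newly made DNA. They are short genes without introns in their main transcripts, lie in dense clusters, and are transcribed in S phase from a nuclear compartment called the histone locus body. Their mRNAs end in a stem-loop instead of a poly(A) tail, and their output is tied to DNA synthesis. ORC marks places in the genome where the MCM2-7 helicase can be loaded before S phase.

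The deposited tables give reads in origins for WT and one knockout line at a time, with the replicates merged, and the deposited lists give the origins found in both replicates of a line. Total reads in origins were 6416892 to 6878409 for WT and 6691088 to 8523971 for the knockout lines. Reads were scaled to a total of 1000000 reads in origins (RPM). No replicate values are at hand, so no difference could be tested. The 95% intervals given here are exact Poisson intervals for origins per Mb and exact Clopper-Pearson intervals for log2 folds. They cover counting error only, and reads that are PCR copies are not independent molecules. Neighbouring histone genes share the same origins, so genes are not independent observations.

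Across the 4 lists there were 11 distinct origins in the windows, 6 on chromosome 1 and 5 on chromosome 6. Stretches of 300 bases from 4 of them are shown, since the results turn on these, each read from the forward strand of hg38. The first is the strongest origin of any histone gene window, in an intron of H2AC25 on chromosome 1 (chr1:228438454-228438753), where capitals mark 7 exact copies of the 12-base word that the origin repeats 20 times over its whole length of 1306 bp.
H2AC25 intron origin: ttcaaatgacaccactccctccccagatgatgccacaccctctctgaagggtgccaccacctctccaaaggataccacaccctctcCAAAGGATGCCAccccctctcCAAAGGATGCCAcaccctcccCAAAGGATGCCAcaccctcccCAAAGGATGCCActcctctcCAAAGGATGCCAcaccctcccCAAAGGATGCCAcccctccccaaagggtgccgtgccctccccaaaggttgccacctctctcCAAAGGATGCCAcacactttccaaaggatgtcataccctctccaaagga
A 12-base word with at least 20 copies was held by 1.67% of the 30197 WT origins. The second lies 290 bp upstream of the start of H2AC21 (chr1:149888749-149889048), and the third is the only origin listed among the 32 histone genes near 26 Mb, in an intron of H4C8 (chr6:26282538-26282837). In both, capitals mark runs of at least 3 G or C.
H2AC21 upstream origin: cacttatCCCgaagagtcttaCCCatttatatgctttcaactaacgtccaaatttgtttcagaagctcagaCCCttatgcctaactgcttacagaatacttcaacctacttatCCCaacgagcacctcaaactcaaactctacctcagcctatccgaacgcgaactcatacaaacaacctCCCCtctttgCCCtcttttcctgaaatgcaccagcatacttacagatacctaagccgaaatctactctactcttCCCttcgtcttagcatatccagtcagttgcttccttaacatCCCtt
H4C8 intron origin: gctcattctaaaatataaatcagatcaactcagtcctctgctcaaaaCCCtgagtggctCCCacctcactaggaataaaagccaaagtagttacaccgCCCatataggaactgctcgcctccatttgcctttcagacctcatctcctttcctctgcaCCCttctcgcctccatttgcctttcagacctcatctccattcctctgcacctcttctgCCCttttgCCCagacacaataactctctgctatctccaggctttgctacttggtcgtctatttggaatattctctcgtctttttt
Both stretches were C-rich on this strand, with 100 C and 30 G at H2AC21 and 101 C and 38 G at H4C8, and neither held a run of 3 G. The fourth is one of a pair of origins that every knockout list holds and the WT list lacks. It lies 23 bp beyond the 3′ end of H2AC15 (chr6:27837457-27837756, capitals again mark runs of at least 3 G or C).
H2AC15 3′ origin: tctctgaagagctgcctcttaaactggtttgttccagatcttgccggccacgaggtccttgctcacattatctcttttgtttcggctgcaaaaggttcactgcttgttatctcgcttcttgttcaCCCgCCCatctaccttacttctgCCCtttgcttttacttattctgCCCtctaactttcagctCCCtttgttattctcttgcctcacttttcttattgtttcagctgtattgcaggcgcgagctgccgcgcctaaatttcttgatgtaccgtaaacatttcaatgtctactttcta
The other origin of this pair lies 1.92 kb beyond the 3′ end of H4C11. In it, 38.2% of the 50-base words were found once in the genome, against 100% at the H2AC15, H2AC21 and H2AC25 origins and 94.1% over all WT origins.

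The share of histone genes with an origin close by was below that of other genes. The origins per Mb of all their windows together, which join unlike places, were not distinguishable from background. An origin lay within 10 kb of 10 of the 68 genes in WT (14.7%), 16 in ORC1KO (23.5%), 9 in ORC2KO (13.2%) and 12 in ORC5KO cells (17.6%). The same was true of 47.7%, 49.8%, 53.1% and 55.7% of the 19965 other protein-coding genes. Among the 2724 other protein-coding genes under 5 kb, closer in length to most histone genes, the shares were 40.3%, 38.5%, 43.8% and 45.0%. No origin of any of the 4 lists lay within 10 kb of 52 histone genes (76.5%), a situation shared by 34.7% of the other genes and 47.7% of the other genes under 5 kb. These shares count genes, and neighbouring histone genes share a window. Counted by length, the 8 windows held 11.3 origins per Mb in WT (4.53 to 23.2), 16.1 in ORC1KO (7.72 to 29.6) and 12.9 in both ORC2KO and ORC5KO cells (5.56 to 25.4). The windows of the other protein-coding genes held 14.2, 15.3, 17.3 and 19.0, and all 4 intervals include these values. The joined density averages 4.69 to 9.37 per Mb in the chromosome 6 cluster with 29.4 to 35.2 on chromosome 1, given apart below.

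The median distance from a histone gene to the nearest origin was 75.2 kb in WT, 46.3 kb in ORC1KO, 538 kb in ORC2KO and 61.7 kb in ORC5KO cells, against 14.3, 10.3, 5.90 and 3.36 kb for the other protein-coding genes. Over the other genes the distance shrank from WT to each knockout list, which hold more origins, while over the histone genes the ORC2KO list had the longest distance. An origin within 1 kb of the start site was listed for 1 histone gene in WT (H2AC21) and 3 in each knockout line (H2AC21, H2AC15 and H2BC15). For the other genes the share was 17.2% in WT, 15.1% in ORC1KO, 19.4% in ORC2KO and 20.2% in ORC5KO cells. RefSeq promoter windows of 300 bases were matched for 63 of the 68 genes, and none of their 67 windows overlapped an origin in any list. Over all 35116 promoter windows, 7.34% did in WT, 5.63% in ORC1KO, 8.33% in ORC2KO and 8.77% in ORC5KO cells.

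**Figure D1:**
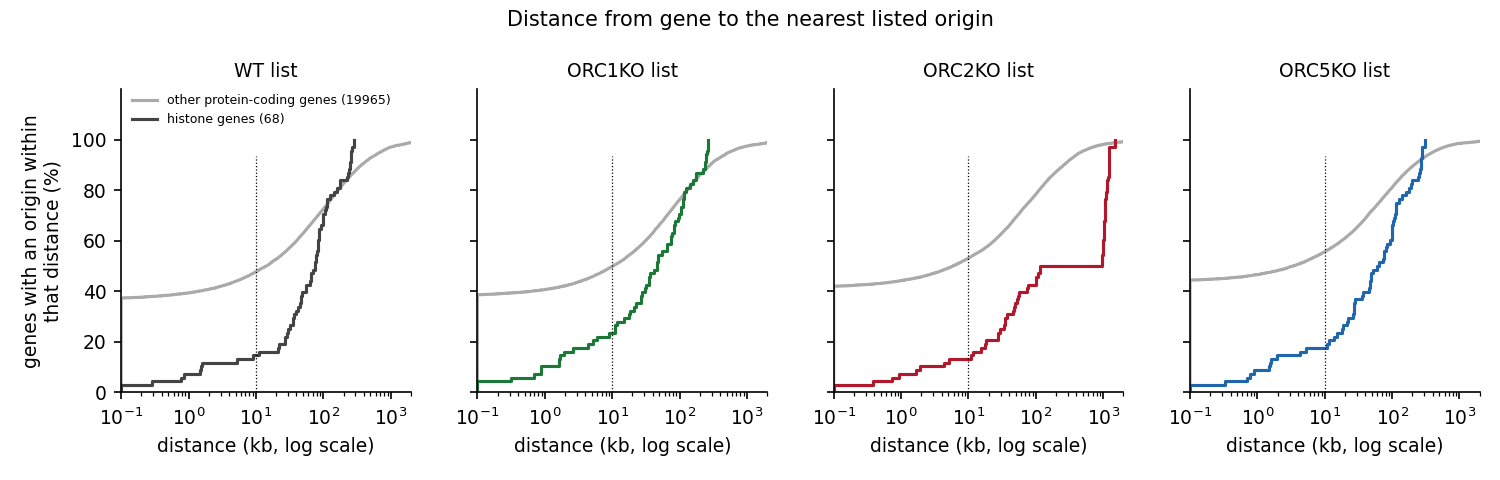
Share of genes (vertical axis, percent) with a listed origin within a given distance (horizontal axis, kb, log scale), for the 68 histone genes in colour and 19965 other protein-coding genes in grey, with 1 panel per line. Distances below 0.1 kb are drawn at 0.1 kb, the dotted line marks 10 kb, and at that line the histone genes lie at 13.2% to 23.5% while the other genes lie at 47.7% to 55.7%.

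By class, the linker histone genes had the longest median distance to an origin, at 150 kb in WT cells. This cannot be told apart from their place, since all but H1-5 lie near 26 Mb. There, 30 of 32 genes of any class had no origin within 10 kb in any list. H3C1 (261 kb) and H4C1 (260 kb) lay about as far from an origin in WT as H1-1. None of the 6 H1 genes had an origin within 10 kb in any list, as was true of 76.5% of all 68 histone genes. In WT cells the nearest origin was 265 kb from H1-1, 226 kb from H1-2, 174 kb from the testis-specific H1-6, 125 kb from H1-4, 47.4 kb from H1-3 and 27.1 kb from H1-5. Of the core histone genes, 6 of 17 H2A, 6 of 18 H2B, 1 of 13 H3 and 3 of 14 H4 genes had an origin within 10 kb in at least 1 list. The lone H3 gene was H3C12, whose nearest origin lay 1.55 kb away in WT and which shares that origin with H2AC17 and H2BC17.

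In the windows of the chromosome 6 cluster (0.427 Mb), WT cells had 2 origins, or 4.69 per Mb (0.567 to 16.9). ORC1KO cells had 4 origins (9.37 per Mb, 2.55 to 24.0), ORC2KO cells 2 (4.69 per Mb) and ORC5KO cells 3 (7.03 per Mb, 1.45 to 20.5). All 4 intervals overlap, so no change in density was detectable with so few origins. The WT, ORC1KO and ORC5KO intervals included the density in windows of the other protein-coding genes (14.2, 15.3 and 19.0), while the ORC2KO interval (up to 16.9) ended just below its value of 17.3. With a reach of 50 kb in place of 10 kb, the densities were 7.39 per Mb in WT, 8.87 in ORC1KO, 2.96 in ORC2KO and 8.87 in ORC5KO cells, so that WT and ORC2KO, equal at 10 kb, moved in opposite directions. The lines had 10.3, 11.4, 12.9 and 14.1 origins per Mb over the genome and 7.87, 8.67, 8.74 and 10.6 over chromosome 6.

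In the windows of the 13 chromosome 1 genes (0.170 Mb), WT, ORC1KO and ORC5KO cells each had 5 origins, or 29.4 per Mb (9.53 to 68.5), and ORC2KO cells had 6, or 35.2 per Mb (12.9 to 76.7). At this reach all 4 intervals included the density of chromosome 1 as a whole, which was 12.2 to 17.4 per Mb, though each measured density was above it. With a reach of 50 kb the densities were 45.0, 42.0, 54.0 and 48.0 per Mb in WT, ORC1KO, ORC2KO and ORC5KO cells. These densities came from 15, 14, 18 and 16 origins in 0.334 Mb, and each was above that of chromosome 1 as a whole. No interval was computed at 50 kb, so a density above that of chromosome 1 is not excluded there. The chromosome 1 windows fall into 2 places. Near 149.8 Mb, 11 genes had 2 origins in each line (16.4 per Mb), both close to H2AC21. Near 228.4 Mb, H2AC25 and H2BC26 had 3 origins in WT, ORC1KO and ORC5KO (62.1 per Mb) and 4 in ORC2KO cells (82.8 per Mb).

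**Figure D2:**
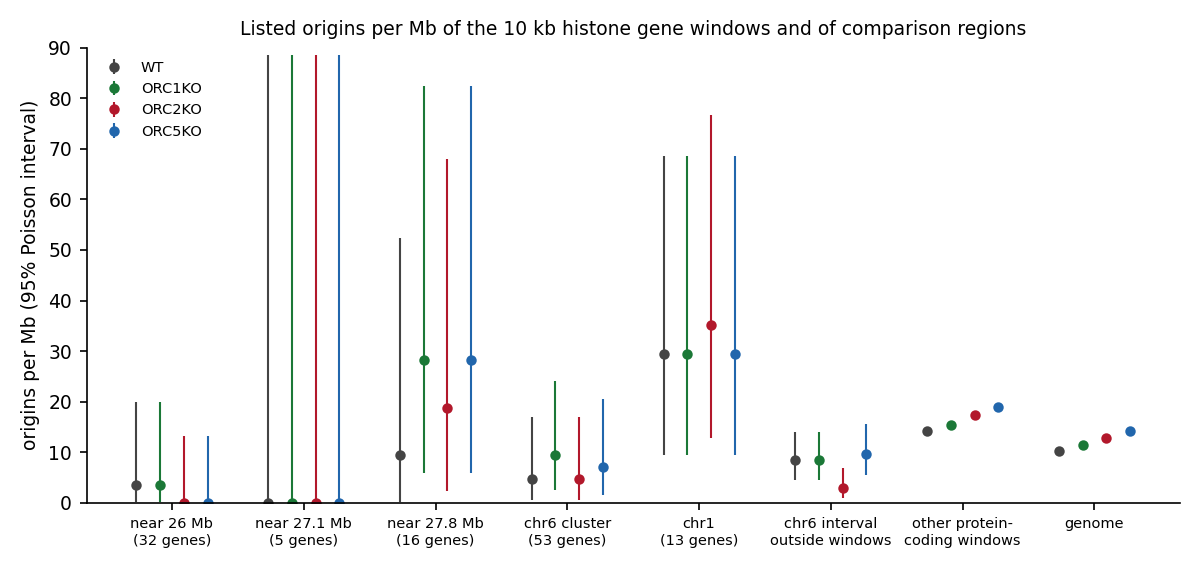
Listed origins per Mb (vertical axis) in the histone gene windows and in comparison regions (horizontal axis) for the 4 lines, with points for the measured density and bars for the 95% exact Poisson interval. The chromosome 6 cluster lies at 4.69 to 9.37 per Mb and the chromosome 1 genes at 29.4 to 35.2 per Mb, with intervals that overlap between all 4 lines in each.

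Sequence repeats limit what could be seen at one of these places. Near 149.8 Mb, 33.1% of 50-base words were found once in the genome, and in the larger of its 2 windows 20.5%. Over the genome the share was 89.8%, and in the chromosome 6 cluster it was 96.2% near 26 Mb, 94.3% near 27.1 Mb and 92.1% near 27.8 Mb. The coding sequences of H4C14, H4C15, H3C14, H3C15, H2AC18 and H2AC19, which are near-identical pairs, held no such word. How reads with several matches were treated is not given in the sources used here, so that the lack of listed origins within 10 kb of H2BC18, H3C13 and those 6 genes cannot be told apart from a lack of reads that could be placed. On chromosome 6, H4C11 and H4C12 had no such word in their coding sequence either, while 24 of the 32 genes near 26 Mb had a coding sequence made of such words throughout.

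The chromosome 6 cluster falls into groups near 26 Mb (32 genes), 27.1 Mb (5 genes) and 27.8 Mb (16 genes). Near 26 Mb, 30 of 32 genes had no origin within 10 kb in any list, the exceptions being H2BC10 and H4C8 at the far end of the group. Between the origin 2.66 kb beyond the 3′ end of H2AC1, listed in ORC1KO alone, and the H4C8 intron origin, 562 kb held 33 histone genes and no origin of any list. The median gap between neighbouring origins of the joined lists was 11.7 kb. The stretch was picked because it holds these genes, which favours a long gap, and its rank among all gaps was not computed. In WT cells alone this origin-free stretch was 843 kb long, and in ORC5KO cells it was 883 kb. In ORC2KO cells it ran for 7040 kb, from 20207047 to 27247121 on chromosome 6, and took in 39 histone genes. The 5 genes near 27.1 Mb (H2BC11, H2AC11, H4C9, H2BC12 and H2AC12) had no origin within 10 kb in any list, and their median distance was 107 kb in WT, ORC2KO and ORC5KO cells and 111 kb in ORC1KO cells.

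Near 27.8 Mb, origins lay within 10 kb of 3 of 16 genes in WT, 7 in ORC1KO, 4 in ORC2KO and 7 in ORC5KO cells. The 3 in WT (H3C12, H2AC17 and H2BC17) all belonged to 1 origin, and 2 further origins, beside H4C11 and H2AC15, were listed in the knockout lines only. They brought H4C11, H4C12, H2AC15 and H2BC15 into reach of an origin, with H2AC15 at 56.3 kb from the nearest origin in WT and at 23, 68 and 28 bp in ORC1KO, ORC2KO and ORC5KO cells. The 9 others (H2BC13, H2AC13, H3C10, H2AC14, H2BC14, H2AC16, H1-5, H3C11 and H4C13) had none within 10 kb in any list.

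**Figure D3:**
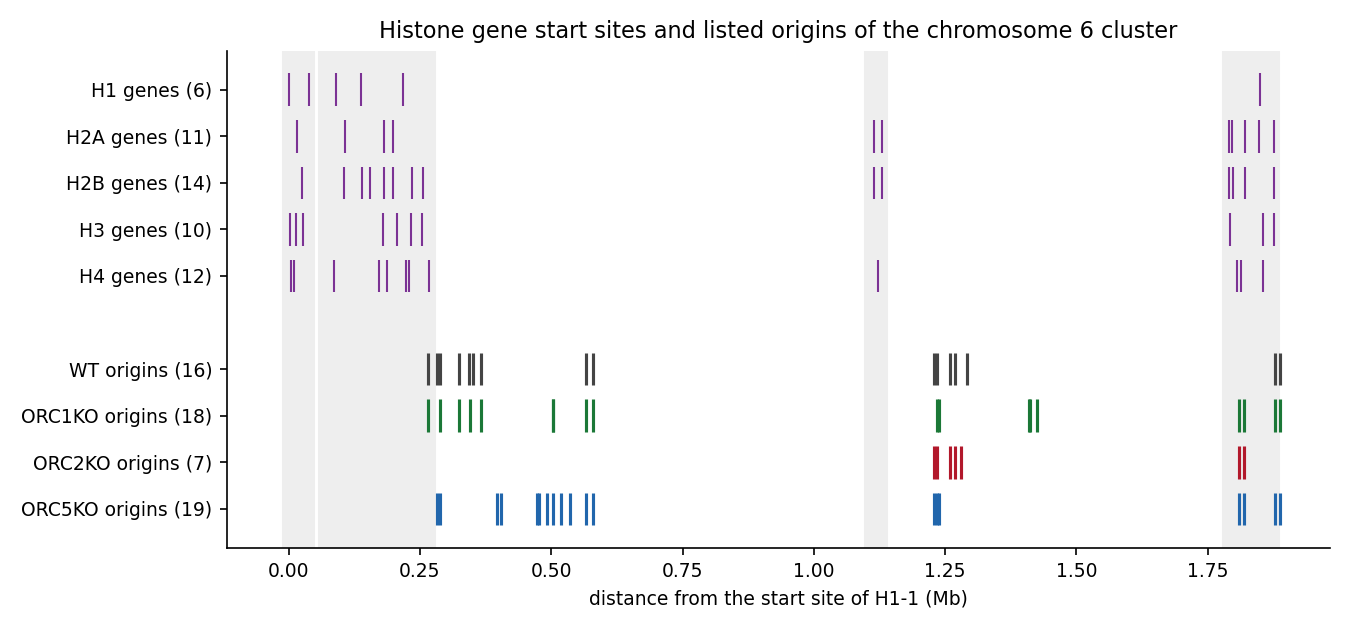
Start sites of the 53 histone genes of the chromosome 6 cluster by class (top 5 rows) and listed origins of each line (bottom 4 rows) by distance from the start site of H1-1 (horizontal axis, Mb), with grey bands for the 10 kb windows. The 32 genes of the first group have 1 origin at their far end in WT and ORC1KO and none in ORC2KO and ORC5KO, and ORC2KO has no origin between 25.9 and 27 Mb.

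Of the 11 origins in the windows, 5 were in all 4 lists, and all 5 were on chromosome 1. They were the H2AC21 upstream origin, a second origin 6.39 kb from H2AC21, a pair in introns of H2AC25 and 1 origin 7.09 kb from H2BC26. Another 2 were in the 3 knockout lists and not in WT (H4C11 and H2AC15), 1 in WT, ORC1KO and ORC5KO (H2BC17), 1 in WT and ORC1KO (H4C8), 1 in ORC1KO alone (2.66 kb from H2AC1) and 1 in ORC2KO alone (7.44 kb from H2AC25). None lay in a coding exon or a UTR. The ORC1KO-only origin near H2AC1 lies in an intron of a protein-coding gene that has no symbol in the annotation. By the annotation, both origins near H2AC21 lie in an intron of BOLA1, the H2AC25 and H4C8 origins lie in introns of long spliced forms of these genes, the ORC2KO-only origin lies in an intron of a lncRNA, and those at H2BC26, H4C11, H2AC15 and H2BC17 are intergenic. The introns make H2AC25 23.1 kb and H4C8 8.03 kb long. The nearest origin was 4.52 kb from the coding sequence of H2AC25 and 2.22 kb from that of H4C8 in WT cells.

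The reads of the 5 shared chromosome 1 origins differed little between lines. The strongest was the H2AC25 intron origin at chr1:228437951-228439256. It had 99.7 RPM in WT and 97.0 in ORC1KO, 96.4 in WT and 99.0 in ORC2KO, and 93.0 in WT and 89.6 in ORC5KO cells, with WT scaled anew in each table. The log2 folds were -0.04 (-0.20 to 0.12), 0.04 (-0.11 to 0.19) and -0.05 (-0.21 to 0.10). Among the origins of each table, 98.9% to 99.0% had fewer WT reads.

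The origin 7.09 kb from H2BC26 came next, with 64.5 RPM in WT and 57.1 in ORC1KO, 62.6 and 62.1 in the ORC2KO table, and 61.4 and 59.1 in the ORC5KO table. Its log2 folds were -0.18, -0.01 and -0.05. The H2AC21 upstream origin had 44.6 RPM in WT and 43.9 in ORC1KO, 43.1 and 46.7 in the ORC2KO table, and 41.6 and 44.5 in the ORC5KO table. All 3 of its intervals include 0, from -0.02 (-0.26 to 0.22) in ORC1KO to 0.12 (-0.11 to 0.35) in ORC2KO. These strongest 3 lay at or above the 91.0th percentile of WT reads in every table, while the median of all origins in WT was at most 17.8 RPM in any table.

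The second H2AC25 intron origin (chr1:228452315-228452913) was above WT in all 3 lines by less than its interval, with log2 folds of 0.14, 0.19 and 0.16. The second H2AC21 origin (chr1:149894351-149894800) was below WT in all 3, with -0.24, -0.17 and -0.20, on 83 to 111 reads per line. Each of these 6 intervals included 0. The origin 7.44 kb from H2AC25, listed in ORC2KO alone, had 71 reads in WT and 111 in ORC2KO cells, a log2 fold of 0.41 (-0.03 to 0.86). The median over all origins listed in ORC2KO and not in WT was 0.11.

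On chromosome 6 no origin reached the RPM of the strongest 3 of chromosome 1, with 8.57 to 19.3 RPM in WT in the ORC1KO table. The second H2AC21 origin on chromosome 1, at 14.6 RPM, lay within this range. RPM counts a whole origin and was not scaled to its width. Joined over the lines, the strongest 3 were 1306, 1108 and 1289 bp wide, and the chromosome 6 origins 304 to 689 bp. The H4C8 intron origin had 92 reads in WT and 115 in ORC1KO cells (14.3 and 17.2 RPM), 92 and 62 in the ORC2KO table (13.9 and 7.94 RPM), and 92 and 105 in the ORC5KO table (13.4 and 12.3 RPM). In ORC2KO it fell, with a log2 fold of -0.80 (-1.29 to -0.32), while the intervals in ORC1KO (0.26, -0.15 to 0.67) and ORC5KO (-0.12, -0.54 to 0.30) included 0. Within ORC2KO cells it stood at the 2.66th percentile of reads, against the 33.5th for WT in the same table.

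The H2AC15 3′ origin had 65 reads in WT and 93 in ORC1KO, 59 and 94 in the ORC2KO table, and 62 and 92 in the ORC5KO table. Its log2 folds were the highest of any histone gene origin measured in all 3 lines, at 0.46 (-0.02 to 0.94), 0.44 (-0.05 to 0.93) and 0.26 (-0.22 to 0.75), and each interval included 0. This origin entered the counts through the knockout lists and not the WT list, which favours folds above 0. The H4C11 downstream origin, listed in the same 3 knockout lines and not in WT, had fewer RPM in each of them than in WT. It had 16.5 RPM in WT and 13.5 in ORC1KO, 16.7 and 13.2 in the ORC2KO table, and 16.3 and 15.1 in the ORC5KO table, with log2 folds of -0.30, -0.34 and -0.11. Each of the 3 intervals included 0. Before scaling it had 106 reads in WT and 90 in ORC1KO, 111 and 103 in the ORC2KO table, and 112 and 129 in the ORC5KO table. At the H4C11 origin, being listed in a knockout line and not in WT thus did not go with more RPM there. Over all origins listed in a knockout line and not in WT, the log2 fold was below 0 for 14.6% in ORC1KO, 33.8% in ORC2KO and 29.0% in ORC5KO cells. Their median log2 fold was 0.31 in ORC1KO and 0.11 in both ORC2KO and ORC5KO cells.

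The H2BC17 origin, 762 bp beyond that gene's 3′ end, was missing from the ORC2KO list alone. It had 124 reads in WT and 118 in ORC2KO cells, a log2 fold of -0.31 (-0.68 to 0.07), and its values in ORC1KO (-0.18) and ORC5KO (-0.26) were close to this. Like the H4C8 intron origin, it is in the WT list and not in the ORC2KO list, which favours folds below 0. Over all such origins the median log2 fold in ORC2KO was -0.35, and 87.0% were below 0. The ORC1KO-only origin near H2AC1 had 55 reads in WT and 69 in ORC1KO cells, a log2 fold of 0.27 (-0.27 to 0.80). The median over all origins listed in ORC1KO and not in WT was 0.31.

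**Figure D4:**
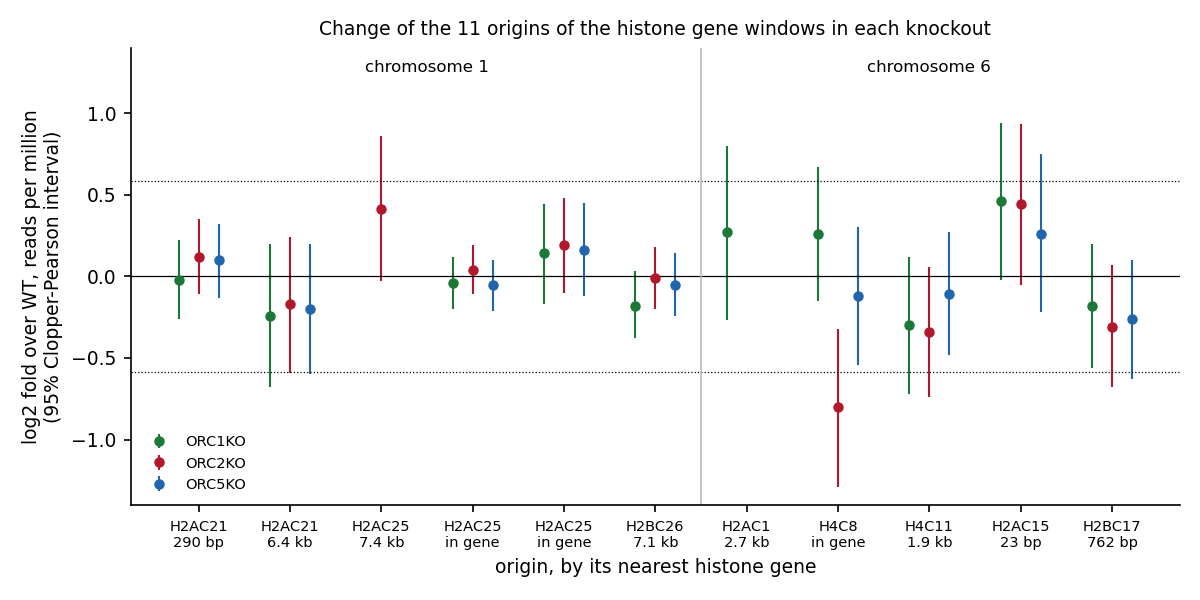
Log2 fold of RPM over WT (vertical axis) for the 11 origins of the histone gene windows (horizontal axis, by nearest histone gene and distance), with points for ORC1KO, ORC2KO and ORC5KO, bars for the 95% exact Clopper-Pearson interval, and dotted lines at 1.5-fold. The H4C8 intron origin in ORC2KO (-0.80) is the only point beyond a dotted line.

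An origin was called up or down at a change of 1.5-fold in RPM or more. None of the 10 origins of the ORC1KO table was called, none of the 9 of the ORC5KO table, and 1 of the 10 of the ORC2KO table was, the H4C8 intron origin (down). The background was 7.04% up and 3.95% down over all origins of the ORC1KO table, 4.66% up and 3.58% down in ORC2KO, and 2.08% up and 0.680% down in ORC5KO cells. With 9 or 10 origins, counts of 0 or 1 are near these shares. The H4C8 intron origin is in the WT list and not in the ORC2KO list, and 20.4% of all such origins were down in ORC2KO. Pooled over the 4 origins of the chromosome 6 cluster, the log2 fold was 0.03 (-0.17 to 0.23) in ORC1KO, -0.27 (-0.48 to -0.06) in ORC2KO and -0.09 (-0.29 to 0.11) in ORC5KO cells. Pooled over the chromosome 1 genes it was -0.06 (-0.16 to 0.04), 0.06 (-0.03 to 0.16) and -0.01 (-0.10 to 0.09).

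In ORC2KO cells, a larger pattern along chromosome 6 cuts the cluster. In ORC2KO cells the log2 fold stepped up along the short arm of chromosome 6 between 26597768 and 27247118, as found by a least-squares split of its 991 origins. The 248 origins before the step had a median of -0.94 (quartiles -1.18 and -0.71), and 84.3% of them were down. The 743 after it had a median of 0.09. The best splits in ORC1KO and ORC5KO cells lay elsewhere, at 53.3 and 47.2 Mb, with medians of -0.05 and 0.28 on either side in ORC1KO and -0.02 and 0.06 in ORC5KO.

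The 32 histone genes near 26 Mb, with H2AC1 and H2BC1, thus lay in the low segment, the 16 genes near 27.8 Mb outside it, and the 5 genes near 27.1 Mb in the 649 kb without origins where the step falls. Between 25.9 and 27 Mb, all 9 origins of the ORC2KO table were below WT and 7 were called down, with a pooled log2 fold of -0.80 (-0.94 to -0.65). The pooled value there was -0.09 in ORC1KO and -0.07 in ORC5KO cells. Between 27 and 28 Mb, none of 10 origins was called down in ORC2KO, with a pooled value of -0.09 (-0.20 to 0.03). The ORC2KO list had no origin between 25.9 and 27 Mb, which allows up to 3.35 per Mb, where WT had 9, ORC1KO 9 and ORC5KO 12. From 27 to 28 Mb it had 7, as did WT and ORC5KO, and ORC1KO had 9.

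The H4C8 intron origin at -0.80 was near the median of its own segment. When each chromosome 6 origin was set against the other origins on its side of the step within 5 Mb, no histone gene origin was called in ORC2KO cells. The pooled log2 fold of the cluster was then -0.22, against -0.27 without this correction. Set against the other origins within 5 Mb on both sides, it was -0.42. Fewer DNA copies of the segment and fewer nascent strands per copy cannot be told apart, since no copy number was measured.

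**Figure D5:**
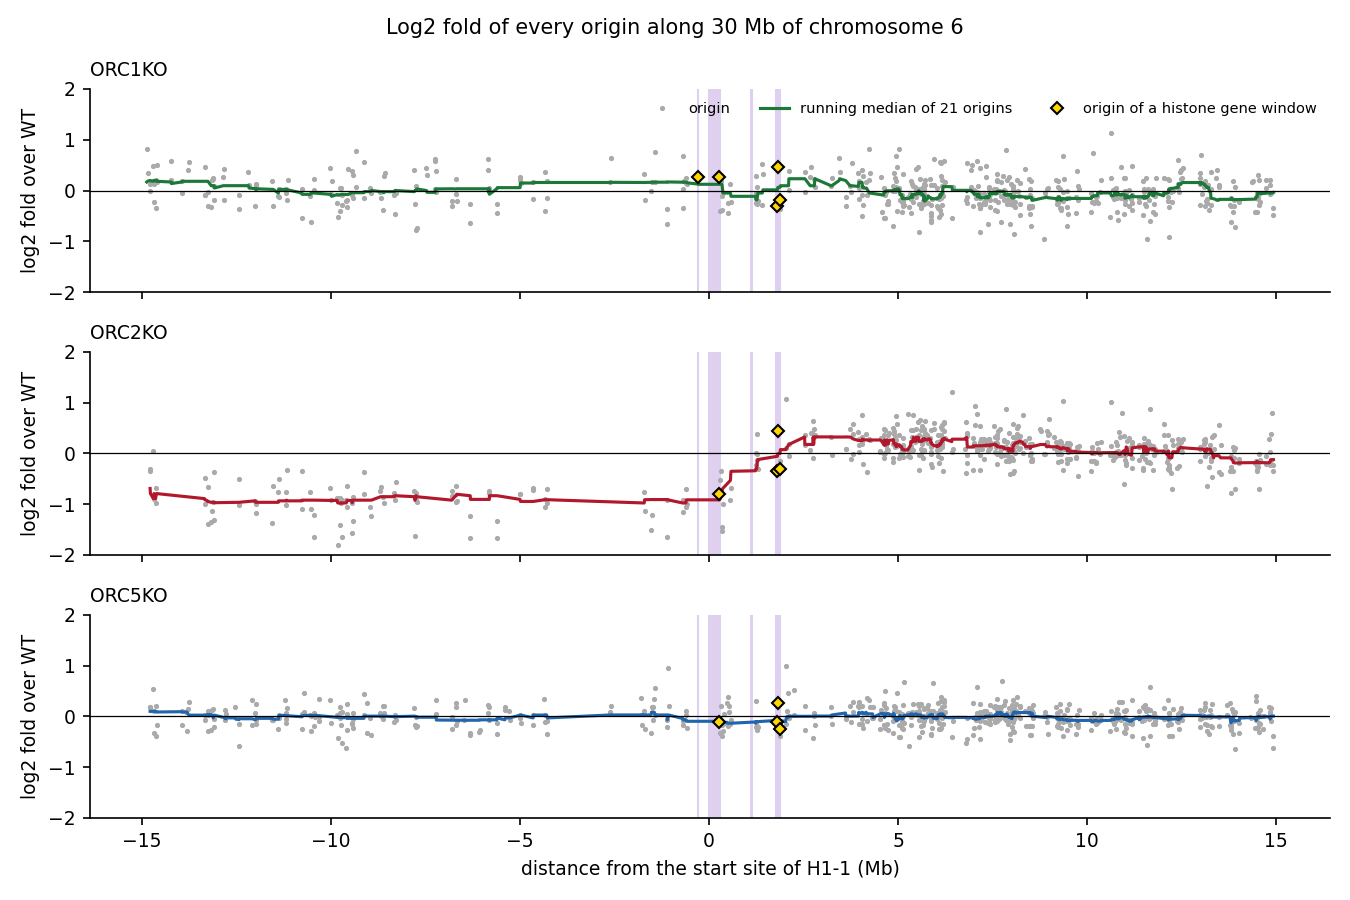
Log2 fold of RPM over WT (vertical axis) of every origin within 15 Mb of the start site of H1-1 on chromosome 6 (horizontal axis, Mb), in 3 panels for ORC1KO, ORC2KO and ORC5KO, with grey points for origins, a line for the running median of 21 origins, diamonds for histone gene origins and bands for the histone gene windows. In ORC2KO the origins of the short arm before the step have a median of -0.94 and those after it of 0.09, and the first histone gene group lies on the low side.

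The histone gene origins had a median of 49.2% GC in WT and 48.4% in ORC1KO cells, against 54.8% and 52.2% over all origins of these lists, and of 54.3% in ORC2KO and 52.1% in ORC5KO cells, against 53.3% and 53.2%. Their GC thus lay below that of all origins in 3 lists and above it in ORC2KO. Their median absolute GC skew, the imbalance of G and C on a strand, was 0.36, 0.36, 0.34 and 0.26 in WT, ORC1KO, ORC2KO and ORC5KO cells, against 0.34, 0.38, 0.35 and 0.35 over all origins. A G-quadruplex motif (4 runs of at least 3 G, 1 to 7 bases apart, on either strand) was found in 3 of the 7 origins in WT, 4 of 10 in ORC1KO, 5 of 8 in ORC2KO and 4 of 8 in ORC5KO cells. Over all origins of these lists the shares were 56.5%, 47.2%, 54.5% and 50.6%. The windows themselves had 42.1% GC in the chromosome 6 cluster and 45.6% on chromosome 1, against 42.1% in windows of the other protein-coding genes. Their observed over expected CpG was 0.411 and 0.396, above the 0.260 of the other windows. Removing the running median of the log2 fold over GC content left the pooled values inside their intervals.

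Genes that work with the clustered histone genes were read in the same way from lists. Of 15 replication-independent histone genes, such as H2AX and MACROH2A1, an origin lay within 10 kb of 5 in WT (33.3%), 4 in ORC1KO, 4 in ORC2KO and 8 in ORC5KO cells (53.3%). Of 24 genes of histone mRNA processing and the histone locus body it was 13, 11, 15 and 15, and of 18 histone chaperones 5, 7, 8 and 8. The share over other protein-coding genes was 47.7% in WT, 49.8% in ORC1KO, 53.1% in ORC2KO and 55.7% in ORC5KO cells. Among the origins of the replication-independent genes, 1 of 13 was up and 2 were down in ORC1KO, at H2AX (-0.62) and MACROH2A1 (-0.59), 1 of 12 was up and 1 down in ORC2KO, and none of 14 was called in ORC5KO cells. Their median log2 folds were -0.19, 0.00 and -0.03, against -0.01, -0.04 and 0.00 over all origins. The background of calls was 7.04% up and 3.95% down in ORC1KO, 4.66% and 3.58% in ORC2KO, and 2.08% and 0.680% in ORC5KO cells. Among the origins of the processing genes in ORC1KO, 6 of 38 were up (background 7.04%) and 2 were down (background 3.95%), with a median log2 fold of 0.01. In ORC2KO 1 of 41 was up and 2 were down (background 4.66% and 3.58%, median -0.01), and in ORC5KO 1 of 40 was up and 1 down (background 2.08% and 0.680%, median 0.01). Several of these genes have more than 1 origin, and no count was tested.

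The origins called the same way in 2 or more lines in these lists were at 3 genes. The 3 tables share the WT reads, so that such calls are not independent. Over the 56863 origins of the 3 tables joined, 2.26% were up in at least 2 lines, 0.714% were down in at least 2 and 0.0862% were down in all 3. An origin near H1-10, a replication-independent linker histone gene on chromosome 3, was up at 1.39 in ORC1KO and 1.20 in ORC2KO on the log2 scale and was not in the ORC5KO table. A second origin near H1-10 was down in ORC2KO (-0.63), with -0.36 in ORC1KO and -0.22 in ORC5KO. One near LSM10, a subunit of the U7 snRNP that cuts histone pre-mRNA, was up at 0.68 in ORC2KO and 0.64 in ORC5KO, with 0.56 in ORC1KO. One near SNRPB, which encodes the Sm proteins B and B′ of the spliceosome and the U7 snRNP, was down in all 3 lines, at -0.73, -0.91 and -0.60. None of the 16 origins of the chaperone genes was called in ORC1KO, 1 of 16 was up in ORC2KO (near NAP1L4, 0.95, background 4.66% up), and none of 15 was called in ORC5KO cells.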

How the data were processed

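SNS-seq reads were trimmed with Trim Galore 0.6.4, aligned with Bowtie and counted in origins by the authors, per the submitters' processing notes and the study's methods. Origins were the MACS2 peaks found in both replicates of a line, on GRCh38. The deposited lists give positions alone (chromosome, start and end, no score). The deposited tables give whole-number counts of reads per origin, without normalization and with the replicates of a line merged. The tool and settings of the read counting, the read length and the treatment of reads with several matches are not given in the sources used here. All columns of values in the files could be mapped to a line (0 could not).

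An origin belonged to a window if it overlapped it by at least 1 bp. Counts were divided by all reads of the line in the table, and no pseudocount or filter on low counts was used. Only chromosomes 1 to 22, X and Y were counted. Uniqueness was the share of 50-base words found once in these chromosomes of hg38, on both strands, with every 1000th word for the genome. Origins were called at 1.5-fold. Sequence stretches are given for 4 of the 11 origins. No test was run, since the tables hold no replicate values.

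Members and lists were chosen with earlier results of these data known. Genes named were those whose body overlaps an origin in all 4 lists, those without an origin within 10 kb in any list (given by group) and those with an origin past 1.5-fold. Origins named were the 3 with the most WT reads on each chromosome, those past 1.5-fold in at least 2 lines and those on one side of WT in all 3 lines. The other origins were few and were named as well, chosen after their values were seen. For the other lists, a gene was named where an origin passed 1.5-fold the same way in at least 2 lines. H2AX and MACROH2A1 and NAP1L4 were named outside this rule.

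The alternatives were a distance of 50 kb, the midpoint rule, edgeR TMM factors, a correction for GC content, the local median within 5 Mb, at least 100 reads, 2-fold, and presence or absence in the lists. Added after seeing the data were the distance from the coding sequence, density per Mb of unique words, and the local median on the same side of the chromosome 6 step. Overlapping origins of the 3 tables were joined to count those called in several lines. Counts were analysed in R 4.3.3 (edgeR 4.0.16, for TMM alone) and Python 3.11.15, using scipy 1.17.1 for intervals, pandas 2.3.3 and numpy 2.4.6 for tables, numba 0.67.0 for words, samtools 1.23.1 with pysam 0.24.0 for sequence, and matplotlib 3.10.9 for plots.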

Additional observations from a re-analysis of the deposited data

How the results depend on the processing

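All 32 alternative values of origin density and all 31 of the pooled log2 fold stayed inside the counting interval of the reported value, among them those from edgeR TMM factors and the correction for GC content. A distance of 50 kb moved density by over 1.5 times in WT (chromosome 6 cluster 7.39 and chromosome 1 genes 45.0 per Mb), ORC2KO (2.96 and 54.0) and, on chromosome 1, ORC5KO (48.0). Of the counts of called origins, 36 of 44 were unchanged. Calling by presence or absence in the lists gave 3 origins up in ORC1KO, 3 in ORC2KO and 2 in ORC5KO cells in place of 0, and 2 down in ORC2KO in place of 1 and 1 down in ORC5KO in place of 0. The single ORC2KO call became 2 at 50 kb, 0 at 2-fold and 0 against the origins on the same side of the chromosome 6 step, an alternative chosen after seeing the data, in which a shift of the whole segment is removed by construction. The cause of the other changes was not tested. Counted per Mb of unique 50-base words (also added later), the chromosome 1 genes had 57.6 origins per Mb in WT, ORC1KO and ORC5KO and 69.2 in ORC2KO cells. The alternatives have no intervals of their own. Lying inside the wide interval of the reported value does not show a density at background. The limits are the small number of origins, for which intervals are wide, merged replicates, and tables that count reads in listed origins only, so that initiation below the listing threshold is unseen. No paired analysis was possible because the tables merge the replicates.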

Other observations

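The chromosome 6 interval from 25.9 to 28 Mb also holds origins away from the histone genes, between its groups. Outside the histone gene windows there were 14 origins in WT (8.37 per Mb, 95% exact Poisson interval 4.57 to 14.0), 14 in ORC1KO, 5 in ORC2KO (2.99 per Mb, 0.970 to 6.97) and 16 in ORC5KO cells (9.56 per Mb). The butyrophilin genes BTN3A2 and BTN2A2, whose products act in T cell recognition, had origins that were among the lowest of the interval in ORC2KO, chosen here after their values were seen. The origin overlapping BTN3A2 had 74 reads in WT and 30 in ORC2KO cells (log2 fold -1.54), the one overlapping BTN2A2 had 98 and 58 (-0.99). Beyond the step, the origin overlapping PRSS16, which encodes a thymus-specific serine protease, had 269 and 316 reads (log2 fold 0.00).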
